A study of Drosophila melanogaster with 4 samples.

Results

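The 10 genes described here make and control X-chromosome dosage compensation and sex determination in the fly. They are the RNA genes lncRNA:roX1 and lncRNA:roX2 (roX1 and roX2 below), the 5 protein genes of the male-specific lethal (MSL) complex (msl-2, msl-1, msl-3, mle and mof), and the sex determination genes Sxl, tra and dsx. They are a fixed list of gene names, and all 10 had a row among the 11880 genes measured. Poly-A RNA of Drosophila melanogaster larval heads was sequenced in 4 groups of 1 library each. Larvae of the Ca-alpha1T RNAi group carried UAS-dEGFR[L] and UAS-dp110[CAAX], which encode an EGF receptor form and a membrane-tethered PI3K catalytic subunit, together with UAS-Ca-alpha1T-RNAi against a voltage-gated calcium channel. The slo RNAi group carried the same EGFR and PI3K constructs with UAS-Slo-RNAi against a calcium-activated potassium channel, and the Glioma group carried the EGFR and PI3K constructs alone. Control larvae had none of these. All 4 groups, Control included, carried tub-Gal80[ts], repo-Gal4 and UAS-myrRFP, so that the constructs were driven in glia by repo-Gal4 and held back by a temperature-sensitive repressor until the larvae were moved from 25 °C, where eggs were laid for 3 days, to 29 °C for 5 days. The labels put all libraries in 1 batch and give neither the number nor the sex of the larvae behind a library.

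In flies, males have a single X chromosome, and the MSL complex binds along it and raises its transcription by acetylating histone H4. The roX RNAs are part of that complex and are made almost only in males, whereas in females the RNA-binding protein Sxl blocks translation of msl-2 and so keeps the complex from forming. Sxl also directs female splicing of tra, and the Tra protein directs female splicing of dsx and fru, whose products shape the sexes. RNA levels of the roX genes are therefore a usual readout of how much male tissue a pooled sample holds, while Sxl, tra and dsx are transcribed in both sexes and differ by splicing. The splice forms are not resolved in the gene-level rows used here, so the values below are totals over all transcripts of a gene.

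Levels are given as CPM, counts scaled to the size of the library, with library sizes adjusted by the trimmed mean of M values (TMM), and comparisons of genes with each other use the authors' TPM, which are also set per transcript length. Total counts were 31594447 with Ca-alpha1T RNAi, 32092414 with slo RNAi, 38826243 in Glioma and 36932553 in Control, of which the mitochondrial genome took 10.7%, 15.5%, 8.78% and 7.77%. Markers of the labelled tissue were found: all 5 neuron genes and all 5 glia genes on the lists used were detected in each comparison, next to muscle, salivary gland and fat body genes. The targeted channel genes were at 578 counts of Ca-alpha1T in the library labelled Ca-alpha1T RNAi against 673 in Glioma, and at 753 counts of slo in the library labelled slo RNAi against 1208 in Glioma, log2 ratios of −0.20 (95% counting interval −0.36 to −0.04) and −0.45 (−0.59 to −0.32) that miss the rule of size below. On total counts Ca-alpha1T stood at 0.08, and on the scaled counts it did not differ beyond counting error between the Ca-alpha1T RNAi and slo RNAi libraries (−0.10, −0.27 to 0.08), so its level does not check that label. Since each group has 1 library, no difference has a replicate check and the conditions could not be tested against each other. A gene is called higher or lower where the ratio of 2 libraries was at least 2-fold and its 95% interval excluded equality, among detected genes, those for which either library held 10 counts or more. The intervals are exact for the ratio of 2 counts if reads are independent, and cover counting error only.

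Of the 10 genes, roX1, roX2 and dsx spread most between libraries and the other 7 little. The highest CPM was 2.48 times the lowest for roX2, 2.39 times for dsx and 2.14 times for roX1. For the remaining genes the same quotient ran from 1.13 for tra to 1.44 for msl-2. Per length, roX1 was the most abundant of the 10 with a mean of 139.8 TPM over the 4 libraries, followed by Sxl with 65.8 TPM, tra with 31.8, mle with 25.2 and roX2 with 24.0. The rest averaged between 4.33 TPM for dsx and 14.7 TPM for msl-3. Within each library 4.71% to 10.1% of all genes had a higher TPM than roX1, against 68.6% to 80.6% for dsx.

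**Figure D1:**
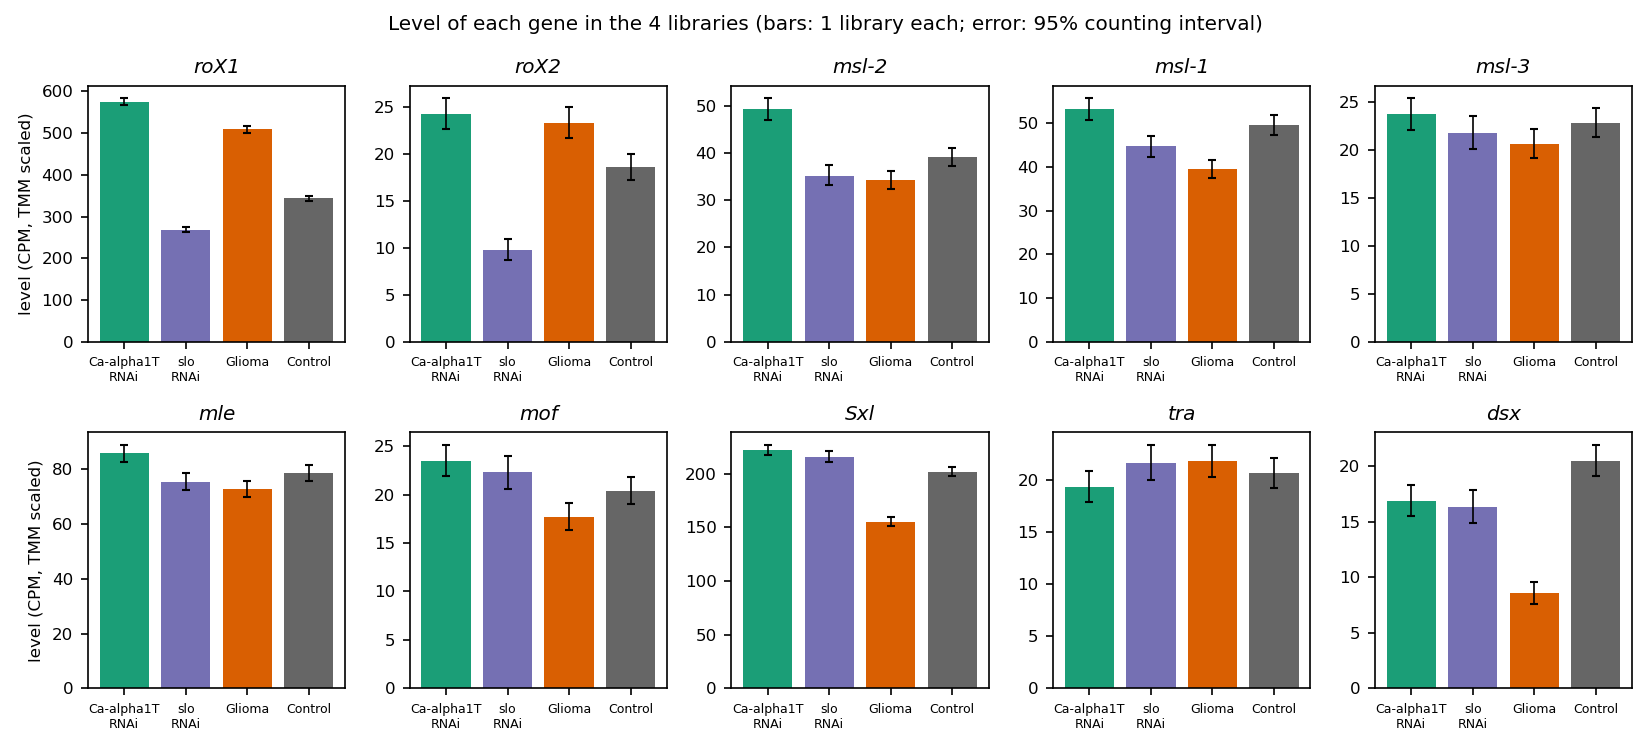
Level of each of the 10 genes in CPM on TMM-scaled library sizes, with 1 bar per library in the order Ca-alpha1T RNAi, slo RNAi, Glioma and Control, and the exact 95% Poisson interval of the count as error bar. roX1 and roX2 are lowest with slo RNAi, at 269 and 9.78 CPM, and dsx is lowest in Glioma, at 8.55 CPM, while tra is nearly level.

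Both roX RNAs stood highest with Ca-alpha1T RNAi and lowest with slo RNAi, a difference of more than 2-fold between these 2 libraries of the same glioma background. The gene of roX1 lies on the minus strand of chromosome X at 3857230 to 3862697 (dm6 coordinates), and part of it overlaps ec, a gene of the opposite strand. It had 20019 counts with Ca-alpha1T RNAi, 8109 with slo RNAi, 17967 in Glioma and 13505 in Control, which were 576, 269, 509 and 344 CPM. The 4 levels were apart from each other by more than counting error, in the order Ca-alpha1T RNAi, Glioma, Control, slo RNAi. The gene of roX2 lies on the plus strand of X at 11579065 to 11580432, with no other annotated gene over it. It had 843 counts with Ca-alpha1T RNAi, 295 with slo RNAi, 823 in Glioma and 729 in Control, or 24.2, 9.78, 23.3 and 18.6 CPM. Its order of libraries was that of roX1, but Ca-alpha1T RNAi and Glioma did not differ beyond counting error.

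Between Ca-alpha1T RNAi and slo RNAi, roX1 had a log2 ratio of 1.10 (95% interval 1.06 to 1.14) and roX2 one of 1.31 (1.12 to 1.51). These were the 2 of 10 genes called in that comparison, both higher, where 10.4% of the 11397 detected genes were called, 5.66% higher and 4.74% lower. Of all detected genes, 5.28% had a ratio at or above that of roX1 and 4.04% one at or above that of roX2. The split of calls in that comparison depends on the scaling: 54.4% of calls were higher with TMM, 70.6% on total counts and 65.4% on total counts without mitochondrial genes.

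With slo RNAi against Glioma, roX2 was the 1 of 10 genes called and was lower, with a log2 ratio of −1.25 (−1.45 to −1.06). In this comparison 11.2% of 11389 detected genes were called, 4.43% higher and 6.8% lower. Of these calls 39.4% were higher, or 51.7% on total counts without mitochondrial genes. roX1 stood at −0.92 (−0.96 to −0.88), short of 2-fold, and 8.08% of detected genes had a ratio at or below it, against 5.13% for roX2. The authors' deposited table gives signed folds of −1.91 for roX1 and −2.40 for roX2 for the same 2 libraries. Pi3K92E, the gene of the PI3K construct, moved with the roX genes here: it had 880 CPM with Ca-alpha1T RNAi, 373 CPM with slo RNAi, 903 CPM in Glioma and 98.6 CPM in Control, a log2 ratio of −1.27 with slo RNAi against Glioma. Egfr, the gene of the other construct, stood at −0.46 for the same libraries. The part of either in the roX values was not tested. In these bulk samples a smaller share of male larvae, fewer cells of a type and less RNA per cell cannot be told apart.

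The comparisons that follow share libraries with those above, so their values are set side by side and not counted as repeats. In Glioma against Control, roX1 had a log2 ratio of 0.57 (0.53 to 0.60) and roX2 one of 0.33 (0.18 to 0.47). Neither was called, and the roX2 ratio turned to −0.08 on the authors' TPM, a scale on which the median of all detected genes also moved, by −0.26. With Ca-alpha1T RNAi against Control the ratios were 0.74 (0.71 to 0.78) for roX1 and 0.38 (0.24 to 0.53) for roX2. With slo RNAi against Control they were −0.35 (−0.39 to −0.31) and −0.92 (−1.12 to −0.73), and roX2 passed 2-fold on total counts at −1.10. The ratios were smallest with Ca-alpha1T RNAi against Glioma, at 0.18 (0.15 to 0.21) and 0.06 (−0.08 to 0.20).

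**Figure D2:**
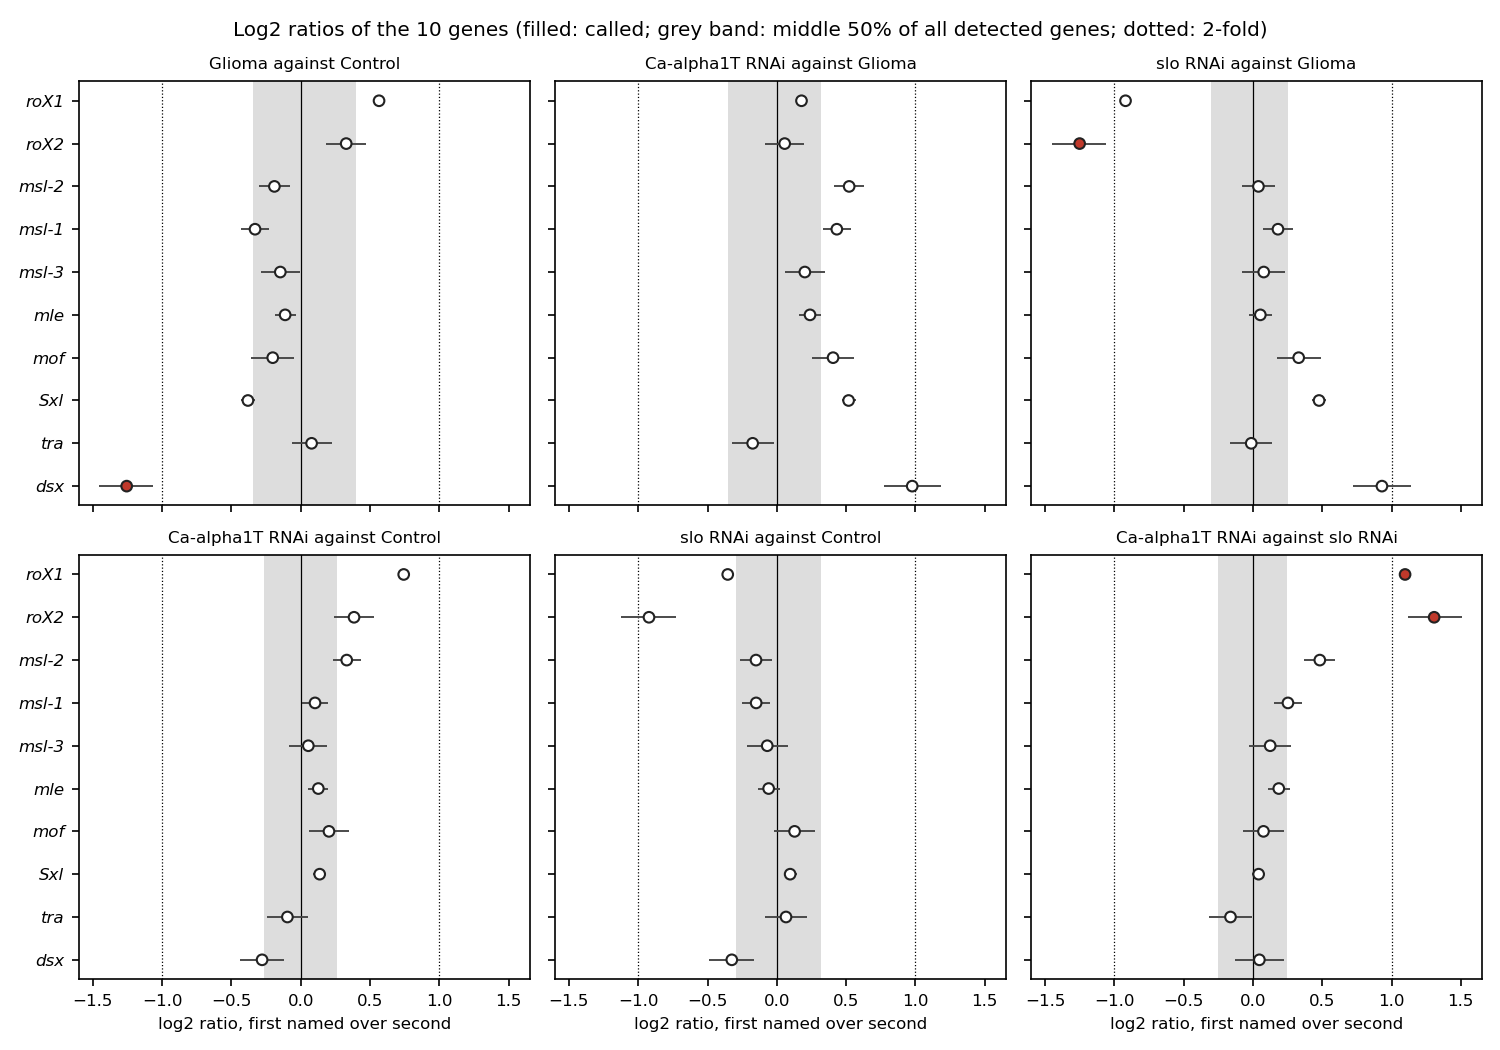
Log2 ratios of the 10 genes in the 6 pairs of libraries, first named over second, with 95% counting intervals as lines, filled points for called genes, a grey band for the middle 50% of all detected genes and dotted lines at 2-fold. The 4 filled points are dsx in Glioma against Control, roX2 with slo RNAi against Glioma, and both roX genes with Ca-alpha1T RNAi against slo RNAi.

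The balance of the 2 RNAs, which no scaling between libraries can touch, also differed. There were 4.21 roX2 counts per 100 roX1 counts with Ca-alpha1T RNAi (95% interval 3.93 to 4.51), 3.64 with slo RNAi (3.23 to 4.09), 4.58 in Glioma (4.27 to 4.91) and 5.40 in Control (5.00 to 5.82). Control thus held the most roX2 for its roX1 and slo RNAi the least. On the log2 scale roX2 minus roX1 was −0.57 (−0.77 to −0.37) with slo RNAi against Control, −0.33 (−0.53 to −0.13) with slo RNAi against Glioma and −0.24 (−0.39 to −0.09) in Glioma against Control. The value for Ca-alpha1T RNAi against Glioma, −0.12 (−0.26 to 0.02), was within counting error. Per length, on the authors' TPM, roX2 stood at 0.156, 0.139 and 0.172 of roX1 with Ca-alpha1T RNAi, with slo RNAi and in Glioma, and at 0.222 in Control. Since ec shares bases with roX1, its own level matters for these values: it was at 130 CPM with Ca-alpha1T RNAi, 80.9 with slo RNAi, 92.4 in Glioma and 135 in Control. ec was lowest with slo RNAi, as roX1 was, but stood at −0.54 in Glioma against Control, where roX1 stood at 0.57. No source used here says whether counting was strand-aware, so reads of the shared bases cannot be assigned. The same limit holds for msl-3, Sxl, tra and dsx, which overlap genes of the opposite strand over 85, 714, 74 and 169 bases.

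The 5 protein genes of the MSL complex varied less than the RNAs. None of the 5 was called in any of the 6 comparisons, in which 10.2% to 15.9% of all detected genes were called. msl-2, on chromosome 2L at 3462218 to 3466112, encodes the subunit that is made only in males. It had 1710 counts with Ca-alpha1T RNAi, 1061 with slo RNAi, 1209 in Glioma and 1534 in Control, or 49.2, 35.2, 34.2 and 39.1 CPM. The slo RNAi and Glioma libraries did not differ beyond counting error, with a log2 ratio of 0.04 (−0.08 to 0.16), while roX1 and roX2 stood at −0.92 and −1.25 between them. The difference of the log2 ratios, which scaling does not touch, was −0.96 (−1.09 to −0.83) for roX1 minus msl-2 and −1.29 (−1.52 to −1.06) for roX2 minus msl-2. In Glioma against Control the sign was the other one: roX1 minus msl-2 was 0.76 (0.64 to 0.87). With Ca-alpha1T RNAi against Glioma msl-2 had the largest ratio of the 5, at 0.52 (0.42 to 0.63), next to 0.18 for roX1.

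msl-1, the scaffold of the complex on 2L at 18683720 to 18688800, was at 53.2, 44.7 and 39.4 CPM with Ca-alpha1T RNAi, with slo RNAi and in Glioma, and at 49.5 CPM in Control. mle, the helicase that remodels roX RNA, on 2R at 5974857 to 5980778, was at 85.9, 75.5 and 72.8 CPM in the same glioma libraries and at 78.7 CPM in Control. Both had their lowest level in Glioma and their highest with Ca-alpha1T RNAi. mof, the acetyltransferase gene, on X at 5873840 to 5876853, was at 23.5, 22.3 and 17.7 CPM in these glioma libraries and at 20.4 CPM in Control. msl-3, a chromodomain protein gene on 3L at 7123213 to 7125533, was at 23.8, 21.8 and 20.6 CPM, against 22.9 CPM in Control. All 5 genes lay below 0 in Glioma against Control, between −0.33 for msl-1 and −0.11 for mle. These values were inside the middle 50% of all detected genes, −0.34 to 0.40. All 5 lay above 0 with Ca-alpha1T RNAi against Glioma, between 0.20 for msl-3 and 0.52 for msl-2. The middle 50% of all detected genes ran from −0.35 to 0.32 in that comparison, and from −0.30 to 0.25 with slo RNAi against Glioma. With slo RNAi against Glioma all 5 were above 0 as well, between 0.04 and 0.33, and the intervals of msl-2, msl-3 and mle there included 0. These signs of the 5 genes were kept under each of 7 alternative scalings, units and prior counts, which is no check of them. Total counts with or without mitochondrial genes, TPM and FPKM moved the median of all detected genes the same way as the signs. On the authors' TPM it moved by −0.26 in Glioma against Control, by 0.41 with Ca-alpha1T RNAi against Glioma and by 0.09 with slo RNAi against Glioma. The other alternatives hardly moved it. With slo RNAi against Control mof stood at 0.13 and the other 4 below 0, and mof turned negative on total counts and on the authors' TPM and FPKM.

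Sxl, the switch gene of female development and the repressor of msl-2 translation, lies on X at 7074550 to 7098053 and was lowest in Glioma. It had 7720 counts with Ca-alpha1T RNAi, 6506 with slo RNAi, 5474 in Glioma and 7929 in Control, or 222, 216, 155 and 202 CPM. The RNAi libraries did not differ beyond counting error, at 0.04 (−0.01 to 0.09). Log2 ratios were −0.38 (−0.43 to −0.33) in Glioma against Control, 0.52 (0.47 to 0.57) with Ca-alpha1T RNAi against Glioma and 0.48 (0.42 to 0.53) with slo RNAi against Glioma, none of them called. On the authors' TPM the ratio of the RNAi libraries was 0.53, a scale on which the all-gene median moved by 0.33. Both roX genes differed more between these 2 libraries than Sxl did on either scale, with 1.10 and 1.31 on TMM. tra, the splicing regulator gene on 3L at 16590059 to 16591050, had 671, 651 and 769 counts with Ca-alpha1T RNAi, with slo RNAi and in Glioma, and 810 counts in Control. At 19.3, 21.6 and 21.8 CPM against 20.6 CPM in Control it was the most even of the 10 genes, and the sign of its ratio turned with the scaling in each of the 6 comparisons.

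dsx, the transcription factor gene at the end of the cascade, lies on 3R at 7924323 to 7967408 and was lower in Glioma than in Control. It had 586 counts with Ca-alpha1T RNAi, 492 with slo RNAi, 302 in Glioma and 803 in Control, or 16.9, 16.3, 8.55 and 20.4 CPM. Glioma stood apart from the other 3 libraries, and the RNAi libraries did not differ beyond counting error. The log2 ratio of Glioma against Control was −1.26 (−1.45 to −1.06), the 1 call among the 10 genes in a comparison in which 15.9% of 11410 detected genes were called, 10.1% higher and 5.81% lower. Of those calls 63.5% were higher, or 46.3% on total counts and 47.4% on total counts without mitochondrial genes. A ratio at or below that of dsx was found for 4.20% of detected genes, and the authors' deposited table gives dsx a signed fold of −2.37. Set against tra in the same libraries, which needs no scaling, the difference of log2 ratios was −1.34 (−1.58 to −1.09), and against Sxl it was −0.88 (−1.08 to −0.68).

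Between the RNAi libraries and Glioma, dsx lay just short of the 2-fold rule. Its log2 ratio was 0.98 (0.78 to 1.18) with Ca-alpha1T RNAi against Glioma, a comparison in which 0 of the 10 genes and 11.8% of 11405 detected genes were called (4.93% higher and 6.88% lower). Of the calls over all genes there, 41.7% were higher, against 67.3% on total counts and 69.9% on total counts without mitochondrial genes. On total counts dsx was called at 1.25 and on the authors' TPM at 1.17. With slo RNAi against Glioma it was 0.93 (0.72 to 1.14), called at 1.09 on total counts without mitochondrial genes. Against Control the RNAi libraries had dsx at −0.28 (−0.44 to −0.12) with Ca-alpha1T RNAi and −0.32 (−0.49 to −0.16) with slo RNAi. In these 2 comparisons with Control 0 of 10 genes were called. Of all detected genes 10.2% of 11416 were called with Ca-alpha1T RNAi, 6.05% higher and 4.15% lower, and 13.3% of 11403 with slo RNAi, 7.31% higher and 5.95% lower. Of the calls with slo RNAi against Control 55.2% were higher, or 41.5% on total counts.

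Larval heads hold several tissues, and their marker levels moved between the libraries too. The summed level of the 4 fat body genes was 7783 CPM with Ca-alpha1T RNAi, 9077 with slo RNAi, 2760 in Glioma and 9649 in Control, lowest where dsx was lowest. The 5 neuron genes summed to 324, 330 and 239 CPM with Ca-alpha1T RNAi, with slo RNAi and in Glioma, and to 335 CPM in Control, again lowest in Glioma. In Glioma against Control 4 of the 5 lay below 0 and 1 above, at 0.44, and none was called. The 5 muscle genes went the other way, with 10834, 17238 and 29842 CPM in those glioma libraries and 8294 CPM in Control. The 6 salivary gland genes summed to 1319 CPM with Ca-alpha1T RNAi, 9782 with slo RNAi, 956 in Glioma and 21986 in Control, so that both libraries with the highest roX levels had the lowest salivary levels. The 5 glia genes summed to 664, 611 and 761 CPM, against 723 CPM in Control, a sum over members that went both ways: repo and moody were higher in Glioma than in Control, at 1.13 and 2.74, while Eaat1 stood at −0.50. The 5 eye disc genes summed to 112, 113 and 94.1 CPM, against 119 CPM in Control. Each of these lists had all its genes measured, and no count in the table is below 1. The part of tissue makeup in the values of dsx or of the roX genes was not tested.

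Of 18 partner genes of the MSL complex and of the NSL complex, the other complex that holds MOF, none was called in any of the 6 comparisons, in which 10.2% to 15.9% of all detected genes were called. Of the 18, 17 lay below 0 in Glioma against Control, with a median of −0.42, where the median of all detected genes was 0.00. With Ca-alpha1T RNAi against Glioma 17 of 18 lay above 0 (median 0.29), and with slo RNAi against Glioma 14 of 18 did (median 0.20), beside −0.01 for all detected genes in both. Against Control 11 of 18 lay below 0 with Ca-alpha1T RNAi (median −0.07), where all 5 MSL protein genes lay above 0, and 13 of 18 did with slo RNAi (median −0.14). JIL-1, a histone kinase gene, had the lowest value in Glioma against Control at −0.62. Clamp, whose product recruits the complex to the X, stood at −0.48 there, at 0.29 with Ca-alpha1T RNAi against Glioma and at 0.25 with slo RNAi against Glioma. JIL-1 and Clamp were picked here after their values were seen. On total counts the all-gene median itself shifted, by −0.23 in Glioma against Control and by 0.28 with Ca-alpha1T RNAi against Glioma.

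Among 15 sex determination partner genes, fru alone was called. It was called in each comparison of a glioma library with Control, 1 of 15 genes where 10.2% to 15.9% of all detected genes were called. fru encodes transcription factors of which the male forms organise courtship circuits, and it is also transcribed in both sexes from other promoters. It had 6778 counts with Ca-alpha1T RNAi, 5527 with slo RNAi, 6828 in Glioma and 3170 in Control, or 195, 183, 193 and 80.7 CPM. All 3 glioma libraries lay well above Control, with log2 ratios of 1.27 (1.21 to 1.33) for Ca-alpha1T RNAi, 1.18 (1.12 to 1.25) for slo RNAi and 1.26 (1.20 to 1.32) for Glioma. Among the glioma libraries fru ran from 183 to 195 CPM, where roX1 ran from 269 to 576 CPM and dsx from 8.55 to 16.9 CPM. The other 14 partners, among them tra2, vir, fl(2)d and further genes of Sxl splicing, were between −0.55 and 0.04 in Glioma against Control, and the list's median there was −0.10. Its medians were 0.10 with Ca-alpha1T RNAi against Glioma and −0.02 with slo RNAi against Glioma.

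The X-counting genes set Sxl in the early embryo and have other roles later, and 7 of the 8 listed had a row. sc, a proneural transcription factor gene on the X, was lower in Glioma than in Control, with 292 against 760 counts and a log2 ratio of −1.23 (−1.43 to −1.03). It was at 12.1 CPM with Ca-alpha1T RNAi, 14.3 with slo RNAi, 8.27 in Glioma and 19.4 in Control, lowest in Glioma as dsx was. The 1 other call was upd1, a JAK-STAT ligand gene named here after its values were seen, lower with Ca-alpha1T RNAi against slo RNAi at −1.02. Of all detected genes 4.74% were called lower in that comparison and 5.81% in Glioma against Control. The list had medians of −0.32 in Glioma against Control, 0.23 with Ca-alpha1T RNAi against Glioma and 0.25 with slo RNAi against Glioma.

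**Figure D3:**
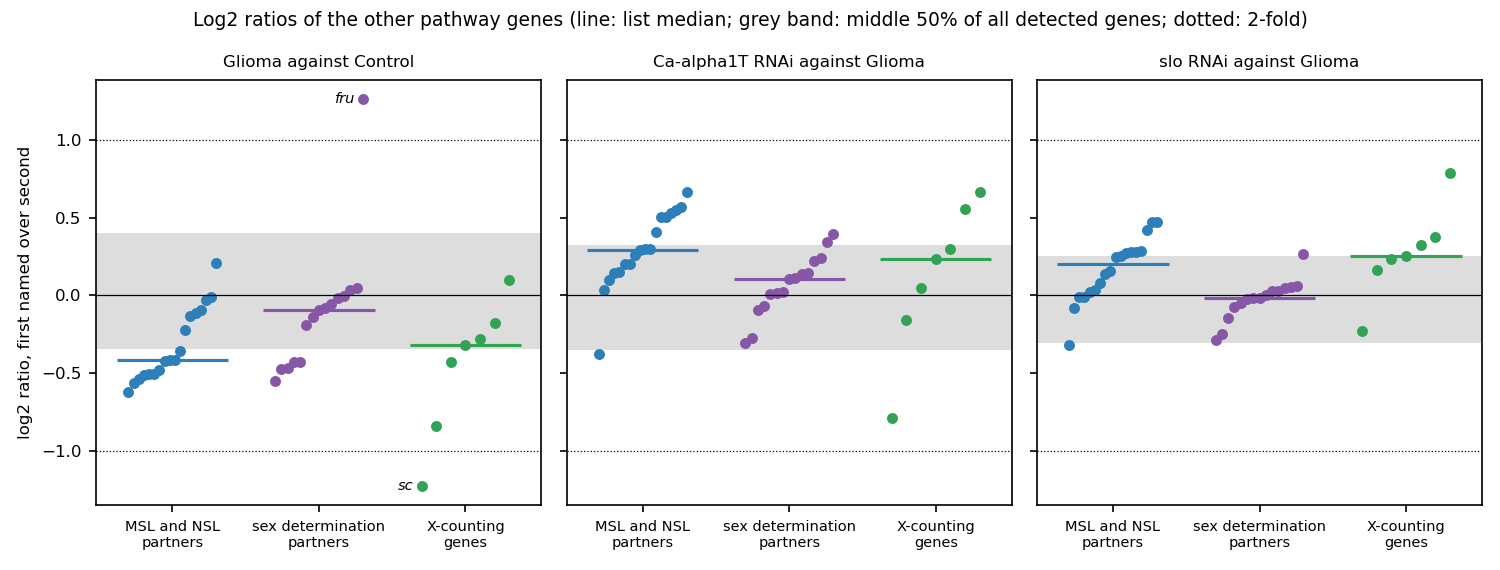
Log2 ratios of the partner genes of the MSL and NSL complexes (18 genes), of sex determination (15) and of X counting (7) in the 3 main comparisons, first named over second, with 1 point per gene, a line at each list's median and a grey band for the middle 50% of all detected genes. fru and sc in Glioma against Control are the 2 points past 2-fold, and the MSL and NSL medians are −0.42, 0.29 and 0.20.

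X-linked genes as a whole differed from autosomal genes by less than 0.1 on the log2 scale in each comparison. Medians of log2 ratios over X-linked genes, minus those over genes of chromosomes 2, 3 and 4, were −0.04 in Glioma against Control, 0.07 with Ca-alpha1T RNAi against Glioma and 0.08 with slo RNAi against Glioma. They were 0.03 with Ca-alpha1T RNAi against Control, 0.04 with slo RNAi against Control and −0.02 with Ca-alpha1T RNAi against slo RNAi, the comparison in which both roX genes were called. Each rests on 1850 to 1859 X-linked and 9470 to 9494 autosomal genes. Chromosome 4, with 97 to 99 detected genes, had medians farther from 0 than the X in 5 of the 6 comparisons, up to 0.32 with Ca-alpha1T RNAi against Glioma. In TPM the median X-linked gene stood at 0.925 of the median autosomal gene with Ca-alpha1T RNAi, at 0.925 with slo RNAi, at 0.880 in Glioma and at 0.907 in Control. In the same order roX1 made up 0.483%, 0.204%, 0.375% and 0.279% of all counts of X-linked genes. The 2 RNAi libraries had the same quotient of medians to 3 digits, while their roX1 shares differed more than 2-fold.

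**Figure D4:**
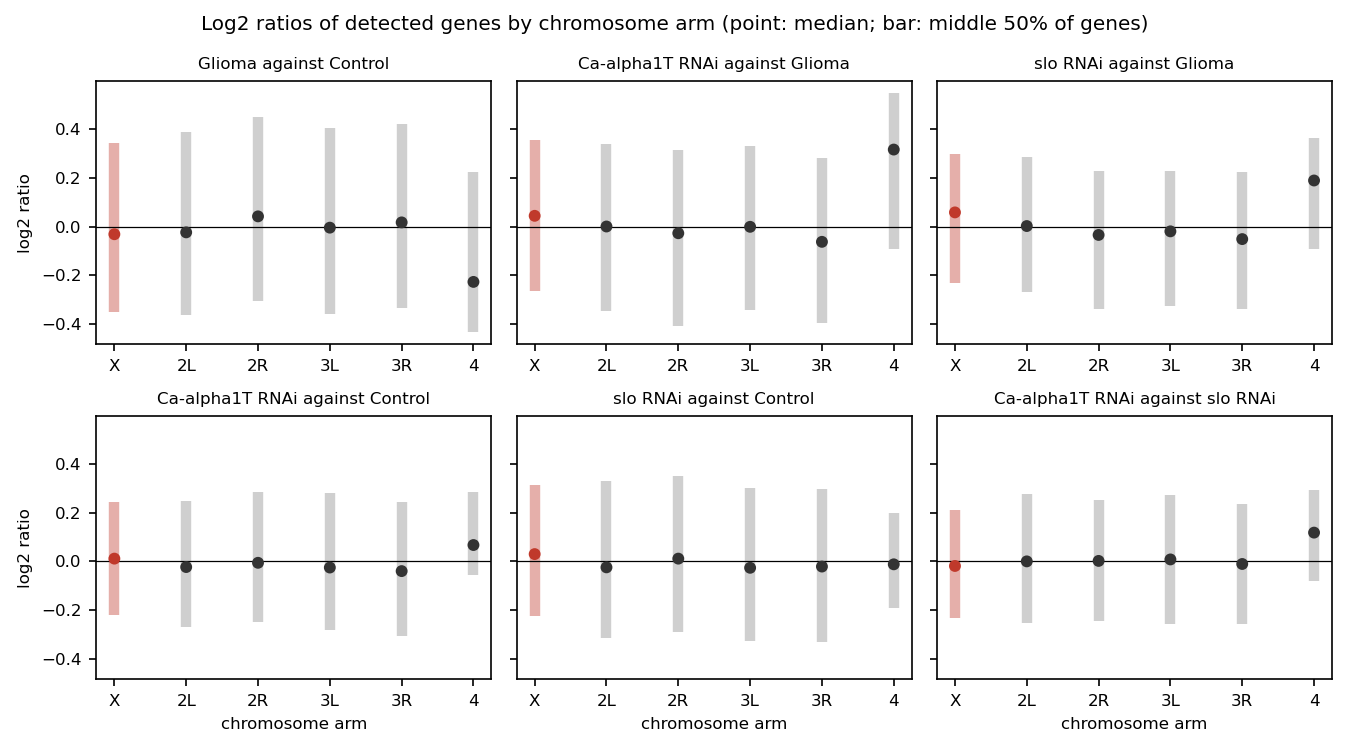
Median log2 ratio of detected genes on each chromosome arm (points, X in red) with the middle 50% of genes (bars) in the 6 pairs of libraries, first named over second. X medians lie between −0.03 and 0.06 in all panels, and the point farthest from 0 is chromosome 4 with Ca-alpha1T RNAi against Glioma, at 0.32.

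Other transcripts that differ between the sexes gave few counts or uncertain ones. The table lists only genes with at least 1 count in every library, and 4 of its rows lie on the Y chromosome: CR41509 and the Su(Ste) RNA genes CR42407 and CR40820, with 1 to 15 counts in each library, and FDY. FDY is also the 1 gene with a row among 12 Y-linked genes listed as markers, and the other 11 are not analysed here. FDY had 168 counts with Ca-alpha1T RNAi, 169 with slo RNAi, 240 in Glioma and 276 in Control, but it is a near-identical copy of the autosomal gene vig2, so reads of vig2 can be counted there. On scaled counts FDY stood at 4.83 CPM with Ca-alpha1T RNAi, 5.61 with slo RNAi, 6.80 in Glioma and 7.03 in Control. It was thus lowest where both roX RNAs were highest. Its log2 ratio with Ca-alpha1T RNAi was −0.49 against Glioma and −0.54 against Control, and was not called. vig2 itself stood at −0.29 and −0.41 in the same comparisons. Per 100 vig2 counts FDY had 1.92 (1.64 to 2.24) with Ca-alpha1T RNAi, 2.14 with slo RNAi, 2.21 in Glioma and 2.11 in Control. These intervals overlap throughout. Yolk protein genes, female products of the adult fat body, were near the detection limit, with 5, 23 and 15 counts of Yp3 in the Ca-alpha1T RNAi, slo RNAi and Glioma libraries and 13 in Control. Genes of germline and testis summed to 38.5, 41.0 and 46.4 CPM in those glioma libraries and 26.7 CPM in Control over the 7 of 16 listed that had a row. The sum hides members that went different ways. With Ca-alpha1T RNAi against slo RNAi the 7 ran from −2.80 to 0.42, and 3 were called lower, as were 4.74% of all detected genes. In Glioma against Control 2 of the 6 detected were called higher, as were 10.1% of all detected genes.

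Lsp1alpha, a larval serum protein gene on the X that is known to escape dosage compensation, was set against its autosomal relatives within each library. Per 100 counts of Lsp1beta it had 23.7 with Ca-alpha1T RNAi, 51.1 with slo RNAi, 36.0 in Glioma and 50.8 in Control. The order of libraries was the inverse of that of roX1, with overlapping intervals for slo RNAi and Control. Per 100 counts of Lsp1gamma it had 61.2, 87.2 and 46.7 in the glioma libraries and 60.7 in Control, where the lowest was Glioma and not Ca-alpha1T RNAi. slo RNAi held the highest value on both. Lsp1alpha itself had a log2 ratio of −1.70 with Ca-alpha1T RNAi against slo RNAi and of 1.59 with slo RNAi against Glioma, but Lsp1beta and Lsp1gamma also differed between libraries, and the 3 genes are close copies whose reads may be split unevenly. Of the 7 sex-biased output genes with a row, 1 was called lower in Glioma against Control. There were 1 higher and 1 lower with Ca-alpha1T RNAi against Glioma, 2 higher with slo RNAi against Glioma, none with Ca-alpha1T RNAi against Control and 3 higher with slo RNAi against Control. Of the 6 detected with Ca-alpha1T RNAi against slo RNAi, 3 were called lower, namely Lsp1alpha, Lsp1gamma and Yp3, which was near the detection limit. Of all detected genes 4.74% were called lower in that comparison. With slo RNAi 4.43% were called higher against Glioma and 7.31% against Control. Over the 6 comparisons 10.2% to 15.9% of all detected genes were called in either direction. bab1, a target of dsx in the adult abdomen, was lower in Glioma than in Control, with 119 against 422 counts and a log2 ratio of −1.67 (−1.98 to −1.38), and higher with Ca-alpha1T RNAi against Glioma at 1.12 (0.80 to 1.45). The order of libraries for bab1 was that of dsx. The other 6 sex-biased output genes with a row, among them its relative bab2, were not called in Glioma against Control. A link between bab1 and dsx was not tested.

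**Figure D5:**
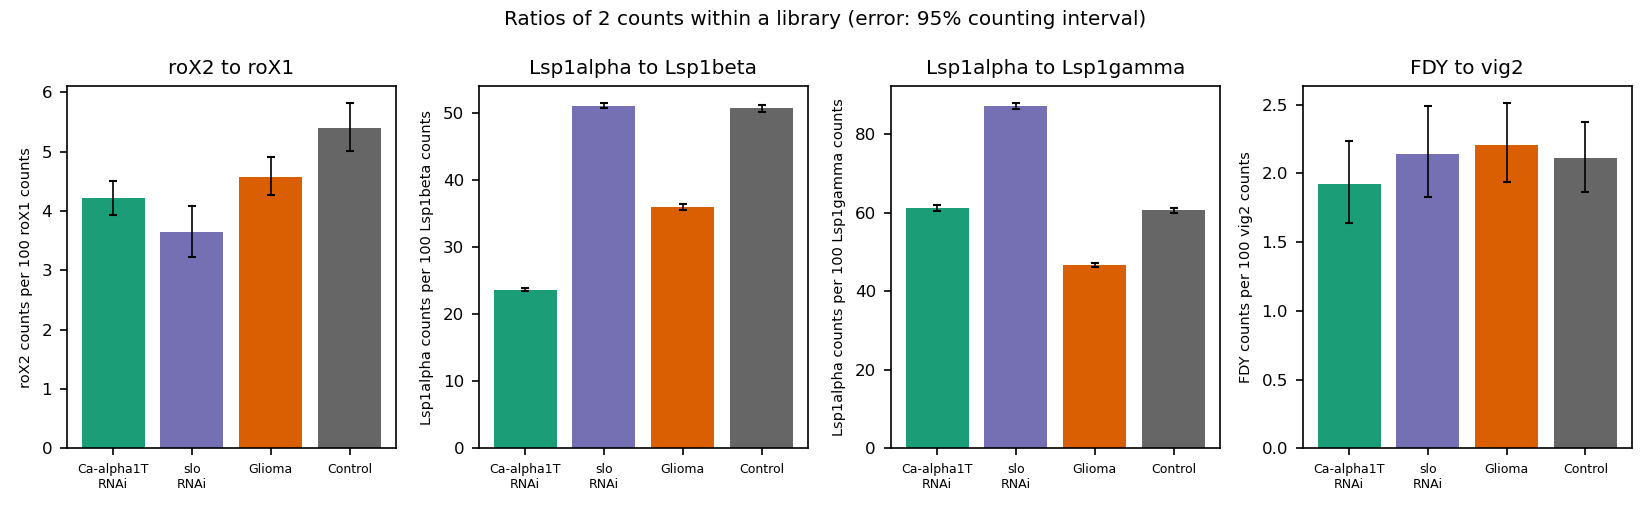
Counts of roX2 per 100 of roX1, of Lsp1alpha per 100 of Lsp1beta and of Lsp1gamma, and of FDY per 100 of vig2 in each library, in the order Ca-alpha1T RNAi, slo RNAi, Glioma and Control, with 95% counting intervals. roX2 per roX1 is highest in Control at 5.40, both Lsp1alpha ratios are highest with slo RNAi at 51.1 and 87.2, and the 4 FDY bars overlap.

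Long noncoding RNA (lncRNA) genes as a class had medians above 0 with either RNAi library, both against Glioma and against Control. Both roX RNAs lay below 0 with slo RNAi in these comparisons and above 0 with Ca-alpha1T RNAi, with no test of the difference from the class. With slo RNAi against Glioma the 307 detected lncRNA genes had a median log2 ratio of 0.30, with 56 called higher and 30 lower (9.77%). The 80 that reached 100 counts in either library had one of 0.34, with 10 higher and 2 lower. roX2 was 1 of these 2. Of all detected genes in that comparison 4.43% were called higher and 6.8% lower. With Ca-alpha1T RNAi against slo RNAi, where both roX genes were called higher, the class median was near 0, at −0.06, with 39 higher and 42 lower of 316. The 83 that reached 100 counts had a median of −0.003, with 7 higher and 7 lower. Of all detected genes 5.66% were called higher and 4.74% lower in this comparison. For slo RNAi against Control the class median was 0.25. With Ca-alpha1T RNAi against Glioma it was 0.21, above the 0.18 of roX1 and the 0.06 of roX2. Against Control it was 0.23 with Ca-alpha1T RNAi, below the 0.74 of roX1 and the 0.38 of roX2. In Glioma against Control it was 0.02, beside 0.57 for roX1 and 0.33 for roX2.

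The genes whose levels over the 4 libraries were most like those of the roX RNAs lay on autosomes. Most genes do: 9883 of those measured are autosomal and 1919 X-linked. Likeness was taken as the root mean square difference of log2 CPM profiles centred on their own mean, among genes averaging at least 10 CPM. For roX1 the nearest were Ssk at 0.09, CG8907 at 0.09 and CG10182 at 0.10, and roX2 itself lay at 0.21. For roX2 they were CG4835 at 0.07, CG18745 at 0.09 and CG9380 at 0.10. These nearest genes are the best of many over only 4 libraries. A profile closer than that of the other roX gene can come from this pick alone, so nothing is concluded from it. For dsx they were CG13293, CG6024 and CG15628, all at 0.05, and among the 10 genes Sxl was nearest at 0.31.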

How the data were processed

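Per the labels' protocols, poly-A RNA of larval heads was made into stranded libraries. Whole-number counts, TPM and FPKM per gene and library, and signed fold scores for pairs of libraries, were deposited by the authors, per the file headers. Tools listed without roles in the submitters' processing notes are HISAT2 2.1.0, StringTie 2.1.3b, Trimmomatic 0.38, FastQC 0.11.7 and edgeR, with the build dm6. The strand setting used in counting is not stated in any source used here. The table lists only genes with at least 1 count in every library.

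Counts were scaled with TMM over the 4 libraries (edgeR 4.0.16, R 4.3.3; factors 1.10 with Ca-alpha1T RNAi, 0.939 with slo RNAi, 0.909 in Glioma, 1.06 in Control). Log2 ratios used a prior count of 0.5 and exact conditional binomial 95% intervals (Python 3.11.15, scipy 1.17.1). PCR reads are not independent molecules. The intervals treat reads as independent, so they may be too narrow even for counting error, and they cover no other error. Positions come from the Ensembl annotation in dm6 coordinates, matched by FlyBase identifier for 11827 of 11880 genes.

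The rule for named genes took the 10 members, genes of the 3 pathway lists called in Glioma against Control or in either RNAi library against Glioma, the manipulated genes and repo where set beside members, and the 3 nearest profiles of each roX gene. Other genes, among them JIL-1, Clamp, upd1, tra2, vir, fl(2)d, ec, the named marker genes and the profiles nearest to dsx, were chosen after their values were seen. Members and lists were chosen with earlier results of these data known. Alternatives were DESeq2 1.42.0 size factors, total counts with and without mitochondrial genes, autosomal TMM, a prior count of 5, other count and fold limits, and the authors' TPM and FPKM with a pseudocount of 1. Total counts for the targeted channel genes were added after seeing the data.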

Additional observations from a re-analysis of the deposited data

How the results depend on the processing

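Of 420 recomputed log2 ratios of the 10 genes over 60 results, 413 kept their side of the rule of size, 7 were newly called and none was lost or reversed among called ones. The number of the 10 genes called became 1 for Ca-alpha1T RNAi against Glioma when scaled by total counts, by total counts without mitochondrial genes or taken from the authors' TPM (dsx at 1.25, 1.28 and 1.17), and 2 with slo RNAi against Glioma on total counts without mitochondrial genes (dsx at 1.09). It became 1 with slo RNAi against Control on total counts, TPM and FPKM (roX2 at −1.10, −1.18 and −1.15). At 4-fold, 510 genes were called in Glioma against Control, 319 for Ca-alpha1T RNAi and 358 for slo RNAi against Glioma, 329 for Ca-alpha1T RNAi and 406 for slo RNAi against Control, and 368 with Ca-alpha1T RNAi against slo RNAi, fewer by construction of the limit. The roX2 to roX1 ratio on TPM or FPKM was 0.156 with Ca-alpha1T RNAi, 0.139 with slo RNAi, 0.172 in Glioma and 0.222 in Control, a per-length scale. Ratios below the limit changed sign in 9 results, those of tra, of roX2 in Glioma against Control, and of mof and Sxl with slo RNAi against Control. A change of library size moves all genes nearly alike. On total counts tra in Glioma against Control turned from 0.08 to −0.15, where the all-gene median moved by −0.23. On the authors' TPM roX2 turned there from 0.33 to −0.08, where that median moved by −0.26. What else moved roX2 was not tested. The X minus autosome medians stayed within their intervals under every alternative run. For changes of library size this is no check, since such a change nearly cancels between X-linked and autosomal genes. In Glioma against Control the value was −0.040 (interval −0.066 to −0.009), and −0.040 on total counts too. The authors' TPM and FPKM gave −0.023 and −0.018 there, and a limit of at least 50 counts gave −0.044. No paired analysis was possible because each group has 1 library and the labels give no replicate numbers. For the same reason no library could be left out of a group. Depth limits Yp3, whose highest count in any library was 23.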
